A study of Oryza sativa Japonica Group with 20 samples.

Results

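Of 57624 loci measured in rice roots, 61 were far above their untreated level at both times in 80 µM arsenite and little or not above it at both times in 20 µM. Levels are in RPKM, which divides a gene's reads by its length and by the size of the library. A locus was a member when both 20 µM root libraries stood at no more than 2 times the untreated value plus 1, and both 80 µM root libraries stood at 20 RPKM or more and at 8 times the untreated value plus 1 or more. The members were thus chosen by their RPKM values in the 5 root libraries, and those values are given below as a description with no test. The members make up 0.106% of the loci, and 10 of them encode small heat shock proteins.

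The study exposed 14-day-old seedlings of the rice cultivar Nipponbare, grown in nutrient solution, to sodium arsenite, the trivalent form of arsenic that rice roots take up through silicon channels. Whole roots and whole shoots were collected untreated at 0 h, after 6 h in 20 or 80 µM, and after 24 h in 20 or 80 µM, which gives 5 groups in each tissue. Each group is 1 mRNA library, so no value has a replicate and none of the differences between single libraries has a replicate check. No untreated plants were taken at 6 h, so exposure and hour of day cannot be told apart at that time. In whole tissue, fewer cells of a type and less RNA per cell cannot be told apart either.

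Small heat shock proteins are chaperones that bind unfolding proteins and hold them in a state from which other chaperones can refold them. Plants carry many of them, in the cytosol, the endoplasmic reticulum, mitochondria, plastids and peroxisomes, and most are hardly transcribed until the cell is exposed to heat or to another agent that damages proteins. HSP101 pulls proteins back out of aggregates with energy from ATP, and heat stress transcription factors of the HSFA2 group drive the transcription of both kinds of chaperone. Arsenite binds to thiol groups of proteins and is known to induce heat shock genes in many organisms.

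The 10 deposited mRNA tables sum to between 313836.4 and 369084.1 RPKM, and the value of 1 read lay between 0.77 and 1.39 times that in the untreated root library. The summed level of 5 root genes (Lsi1, Lsi2, YSL15, IRT1 and Nramp5, which encode uptake transporters for silicon, iron and manganese) was 295.9 RPKM in untreated roots, 84.4 and 46.9 in 20 µM at 6 h and 24 h, and 3.5 and 10.4 in 80 µM. None of the 5 was listed at 0 in a root library. The summed level of 5 leaf genes was 167.9 RPKM in untreated roots, 20.2 and 36.4 in 20 µM, 9.7 and 26.4 in 80 µM, and 1342.8 to 2906.0 in shoots, with none of the 5 listed at 0. Both marker sums were highest in untreated roots, and the root markers were lowest in the 80 µM roots, where the members are high. Their part in the members' values was not tested. The balance of the dawn gene LHY against 3 day-phase clock genes, a readout of harvest hour, was 3.06 (log2) in the shoot library labelled 20 µM 6 h and −0.02 in the one labelled 20 µM 24 h, beside 3.36 in untreated shoots and −0.03 in shoots at 80 µM 6 h. The 2 shoot libraries in 20 µM thus run against their time labels, and the column headers of their tables carry each other's codes. The labels are kept here, so a 20 µM shoot value given for 6 h may belong to 24 h and the reverse, and no result below compares these 2 libraries by time. In shoots at 80 µM 24 h the clock balance was 6.44, the highest of the 10 libraries and far from that at 80 µM 6 h. Its part in the differences of that library from the other shoot libraries was not tested.

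**Figure D1:**
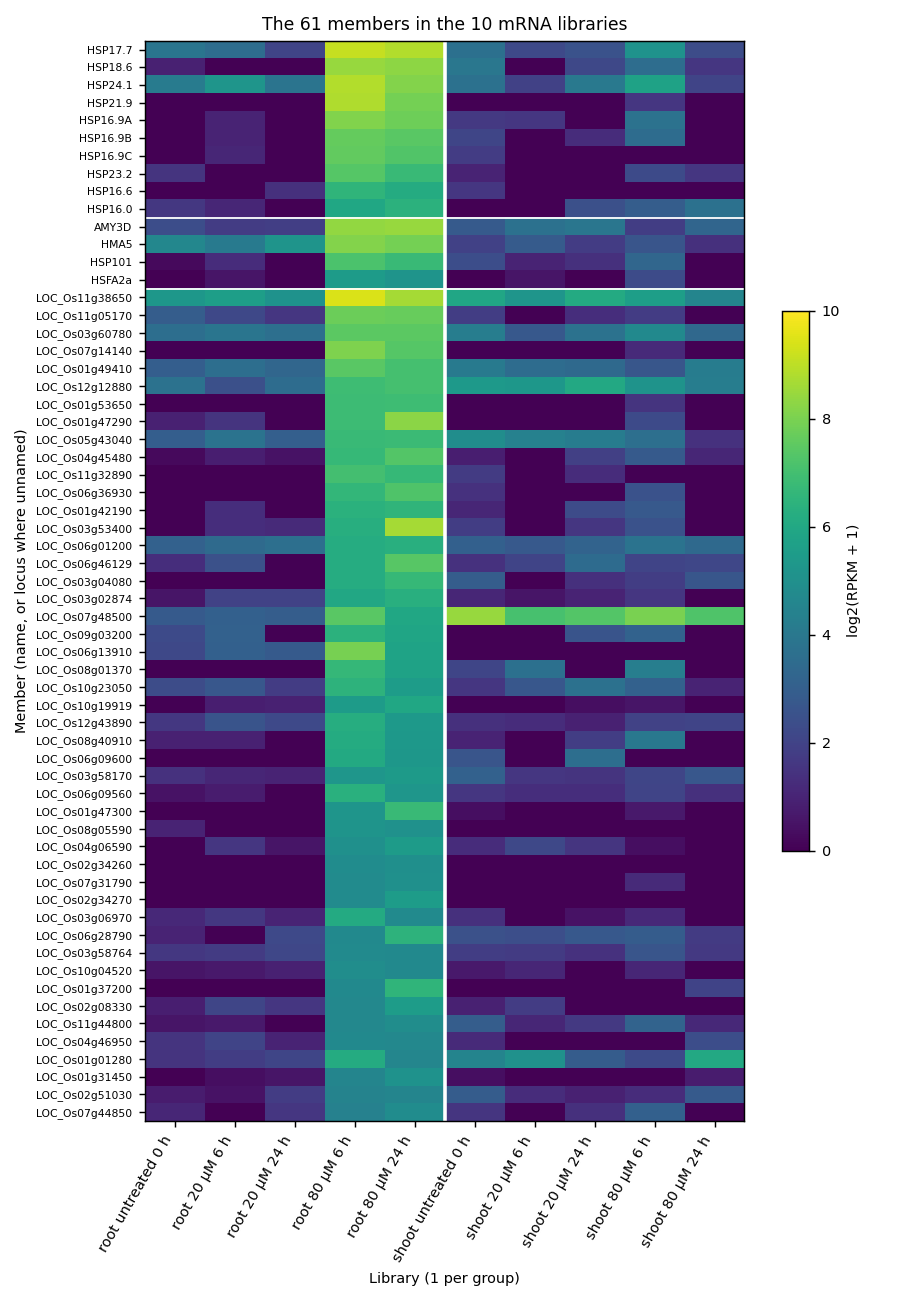
Level of each of the 61 members (lines, by name or by locus) in the 10 mRNA libraries (columns, roots left of the white line), as log2(RPKM + 1). All members are high in the 80 µM root columns, which the rule required, while in shoots most stay low, with LOC_Os07g48500 the one at 136.4 RPKM or more in all 5 shoot libraries.

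The small heat shock proteins went from a median of 0.4 RPKM in untreated roots to 237.0 RPKM in 80 µM at 6 h and 197.3 RPKM at 24 h. In 20 µM their medians were 1.0 RPKM at 6 h and 0.0 RPKM at 24 h, and 7 of the 10 were listed at 0 in the 24 h library. The most abundant was HSP17.7 (LOC_Os03g16040), a cytosolic chaperone. It measured 13.9 RPKM untreated, 10.9 and 3.1 in 20 µM at 6 h and 24 h, and 557.5 and 462.4 in 80 µM. It was thus lower in both 20 µM libraries than in untreated roots and far higher in both 80 µM libraries. HSP18.6 (LOC_Os02g54140), also cytosolic, was at 0.9 RPKM untreated, listed at 0 in both 20 µM libraries, and at 351.4 and 314.5 RPKM in 80 µM.

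Members directed to organelles had the same shape. HSP21.9 (LOC_Os11g13980), of the endoplasmic reticulum, was listed at 0 in the untreated and both 20 µM root libraries and reached 447.3 RPKM at 6 h and 242.1 RPKM at 24 h in 80 µM. HSP23.2 (LOC_Os04g36750), also of the endoplasmic reticulum, was at 1.8 RPKM untreated, at 0 in both 20 µM libraries, and at 163.2 and 107.3 RPKM in 80 µM. HSP24.1 (LOC_Os02g52150), of mitochondria, began from a higher level, with 17.1 RPKM untreated and 36.0 and 13.4 RPKM in 20 µM, and measured 453.9 and 285.8 RPKM in 80 µM. It is the named member closest to the limit at 20 µM, since its 6 h value is nearly 2 times the untreated one plus 1. HSP16.0 (LOC_Os06g14240), of peroxisomes, had 2.1 RPKM untreated, 1.1 and 0 in 20 µM, and 61.8 and 85.7 RPKM in 80 µM, and it was the only small heat shock member higher at 24 h than at 6 h in 80 µM.

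The other 4 small heat shock members are cytosolic and sit side by side on chromosome 1. HSP16.9A (LOC_Os01g04370) was listed at 0 untreated, at 1.0 and 0 RPKM in 20 µM, and at 276.1 and 222.5 RPKM in 80 µM. HSP16.9B (LOC_Os01g04380) was at 0, then 1.0 and 0 RPKM in 20 µM, and 197.8 and 172.1 RPKM in 80 µM. HSP16.9C (LOC_Os01g04360) was at 0, then 1.1 and 0 RPKM, and 193.1 and 154.5 RPKM. In all 3 the 80 µM libraries stood alone, and the 24 h value was a little under the 6 h value. HSP16.6 (LOC_Os01g04340) was at 0 untreated, at 0 and 1.6 RPKM in 20 µM, and at 92.1 and 71.0 RPKM in 80 µM. HSP16.9A, HSP16.9B and HSP16.9C are near-identical copies, so the way reads were shared among them by the authors' counting leaves the split between them uncertain. One more gene of the cluster, HSP17.9B (LOC_Os01g04350), lies between HSP16.6 and HSP16.9C and is no member. It measured 29.0 RPKM untreated, 45.7 and 43.2 in 20 µM, and 40.9 and 30.0 in 80 µM, so it stayed within a narrow range while its neighbours were listed at 0 untreated and at 71.0 RPKM or more in 80 µM.

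**Figure D2:**
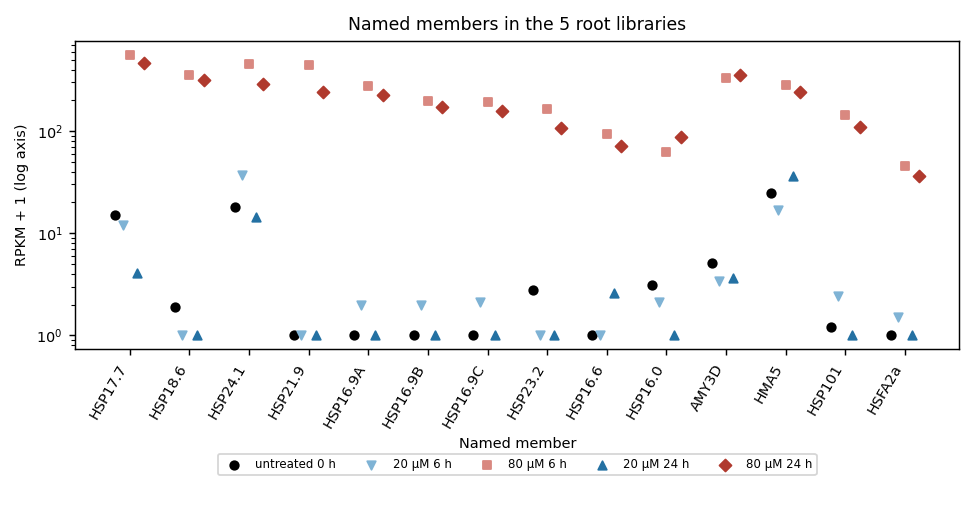
RPKM + 1 on a log axis for the 14 named members in the 5 root libraries, 1 point per library. The 80 µM points of every named member lie above its untreated and 20 µM points, from 35.6 RPKM for HSFA2a at 24 h to 557.5 RPKM for HSP17.7 at 6 h.

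The disaggregase HSP101 (LOC_Os05g44340) behaved like the small heat shock proteins, with 0.2 RPKM untreated, 1.4 and 0 RPKM in 20 µM, and 141.8 and 109.2 RPKM in 80 µM. HSFA2a (LOC_Os03g53340), a transcription factor of heat stress genes, was at 0 untreated, at 0.5 and 0 RPKM in 20 µM, and at 44.5 and 35.6 RPKM in 80 µM. Both were at or near 0 in the untreated and 20 µM roots. HSFA2a was the lowest of the named members in 80 µM.

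The remaining named members have other roles and began from measurable levels. HMA5 (LOC_Os04g46940) is a copper-transporting ATPase that helps to load copper into the xylem of roots. It measured 23.7 RPKM untreated, 15.8 and 34.9 RPKM in 20 µM, and 282.6 and 240.8 RPKM in 80 µM. AMY3D (LOC_Os08g36910) is a starch-degrading alpha-amylase known for its induction in sugar-starved rice cells. It measured 4.1 RPKM untreated, 2.4 and 2.6 RPKM in 20 µM, and 329.7 and 354.1 RPKM in 80 µM. The 20 µM values lay on either side of the untreated value in HMA5 and both below it in AMY3D. In both genes the 80 µM values lay well above the untreated and 20 µM values.

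The other 47 members carry no gene name here, since the files give locus identifiers only and the reference table lists 0 of those. Of the 10 members with the highest level in both 80 µM root libraries, 7 are named above and 3 are unnamed. LOC_Os11g38650 had the highest value of any member, with 38.3 RPKM untreated, 47.1 and 32.9 in 20 µM, and 685.7 and 405.2 in 80 µM. LOC_Os11g05170 had 6.7 RPKM untreated, 3.5 and 2.0 in 20 µM, and 215.1 and 201.7 in 80 µM. LOC_Os03g60780 had 11.2 RPKM untreated, 13.9 and 11.5 in 20 µM, and 175.8 and 178.9 in 80 µM. All 3 were expressed without arsenite, unlike most members. Only 11 of the 61 reached 5 RPKM in untreated roots.

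Over all 61 members the median was 0.8 RPKM in untreated roots, 1.1 and 0.5 RPKM in 20 µM at 6 h and 24 h, and 81.5 and 85.7 RPKM in 80 µM. The highest member stood at 38.3 RPKM untreated, at 47.1 and 34.9 RPKM in 20 µM, and at 685.7 and 462.4 RPKM in 80 µM. Summed, the members held 0.061% of the table in untreated roots, 0.07% and 0.057% in 20 µM, and 2.158% and 2.151% in 80 µM. In untreated roots 23 members were listed at 0, and 13 were listed at 0 in the untreated and both 20 µM libraries. The members listed at 0 untreated reached up to 447.3 RPKM in 80 µM at 6 h. Over the 15414 loci at 5 RPKM or more in a root library, the median difference of the 80 µM libraries from untreated roots was −0.66 on the log2(RPKM + 1) scale, so the members were high in libraries where the typical locus was lower. At 20 µM, where the rule set a ceiling and no floor, 15 members reached 5 RPKM in the untreated or the 6 h library. Of these, 1 was 2-fold higher and 1 was 2-fold lower than untreated on that scale, beside 13.6% higher and 2338 loci lower among the 13802 so considered. At 24 h, 12 members reached it, 0 were higher and 2 lower, beside 11.4% higher and 2279 loci lower among 13713. The rule used this contrast, and nothing is read from these counts.

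The limits of the rule pass through groups of like genes. A total of 290 loci met both 80 µM requirements, and those that are no members were above the ceiling in 20 µM, 179 of them at both times, 42 at 6 h only and 8 at 24 h only. HSP17.9A was just outside the ceiling, with 12.1 RPKM untreated, 26.9 and 18.4 RPKM in 20 µM and 452.4 and 300.7 RPKM in 80 µM. HSP26.7, a plastid protein, was also just outside, listed at 0 untreated, at 2.1 and 0 RPKM in 20 µM, and at 264.0 and 120.4 RPKM in 80 µM. Just inside stood LOC_Os04g06590, with 0 RPKM untreated, 2.0 and 0.5 RPKM in 20 µM and 31.3 and 44.2 RPKM in 80 µM. In 20 µM at 6 h each of these genes lay close to its own ceiling, on either side of it, while their 80 µM values differed widely. At the fold limit, LOC_Os06g01200 was inside with 7.7 RPKM untreated and 72.4 RPKM in 80 µM at 6 h, and LOC_Os04g40380 was outside with 2.6 RPKM untreated and 28.4 RPKM in 80 µM at 24 h. At the level limit, LOC_Os07g44850 was inside with 20.0 RPKM in 80 µM at 6 h and LOC_Os01g39136 outside with 19.6 RPKM.

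Gene lists of the heat response hold 12 of the 61 members. The lists may be incomplete, so members without a name may belong to the same families. Of 20 small heat shock protein genes, 10 are members, 5 met the 80 µM requirements and were above the ceiling in 20 µM, 2 reached 20 RPKM in both 80 µM libraries without the fold, and 3 did not reach 20 RPKM in both. The median difference of the 20 genes in 80 µM from untreated roots was 5.39 on the log2(RPKM + 1) scale, beside −0.66 over all loci, and the members, chosen for that difference, make up 10 of the 20. Of the 5 above the ceiling, HSP17.4 had 1.8 RPKM untreated, 9.4 and 6.3 RPKM in 20 µM, and 394.2 and 156.3 RPKM in 80 µM. HSP18.0 had 11.9 RPKM untreated, 58.7 and 3.5 RPKM in 20 µM, and 584.9 and 383.7 RPKM in 80 µM. Both were above the ceiling at 6 h, and only HSP17.4 at 24 h.

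Among 19 HSP100, HSP90 and HSP70 chaperone genes, HSP101 is the 1 member, 4 met the 80 µM requirements above the ceiling, and the list median was 1.54. Among the 24 heat stress transcription factor genes listed, HSFA2a is the 1 member and HSFA3 was above the ceiling. Of the 24, 17 did not reach 20 RPKM in both 80 µM libraries, and the list median was 0.25. HSFA3 measured 2.4 RPKM untreated, 11.3 and 5.5 RPKM in 20 µM, and 49.5 and 106.2 RPKM in 80 µM. HSFA2c, of the same group as HSFA2a, measured 4.5 RPKM untreated, 0.6 and 2.5 RPKM in 20 µM, and 30.2 and 37.2 RPKM in 80 µM, and missed the fold. HSFA1, whose relatives in other plants switch on the heat response, measured 28.3 RPKM untreated and between 24.2 and 39.7 RPKM in the treated roots. None of 9 other heat response genes is a member, and 2 of them were above the ceiling.

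The lists outside the heat response held few members. Of 16 genes of metal transport and thiol synthesis, HMA5 is the 1 member and APR1, an enzyme of sulfate reduction, was above the ceiling, with 30.7 RPKM untreated, 219.6 and 75.8 RPKM in 20 µM, and 485.2 and 359.3 RPKM in 80 µM. The list median was −0.29. Of 12 genes of the abscisic acid response none is a member, 2 were above the ceiling and the median was 2.66. One of the 2 was LEA3, a protective protein of drying cells, with 4.5 RPKM untreated, 38.9 and 15.9 RPKM in 20 µM, and 340.0 and 168.0 RPKM in 80 µM. Of 8 genes of stress in the endoplasmic reticulum none met the 80 µM requirements, and the median was −0.49. BiP1, the main chaperone of that compartment, measured 160.2 RPKM untreated and 44.2 and 146.1 RPKM in 80 µM, lower in both, while HSP21.9 and HSP23.2 of the same compartment were members. The list did not move as a whole. LOC_Os07g44950 on it was higher in both, with 16.4 RPKM untreated and 45.9 and 77.6 RPKM in 80 µM. LOC_Os06g41770 measured 29.6 RPKM untreated, and 21.5 RPKM at 6 h and 100.2 RPKM at 24 h in 80 µM. Of 8 genes of low oxygen and respiration none is a member, 1 was above the ceiling and the median was 0.57.

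**Figure D3:**
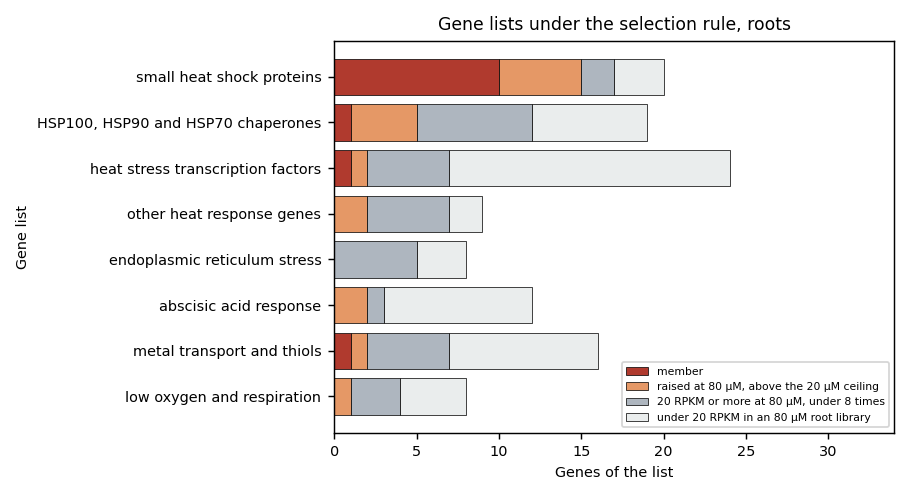
Number of genes in each of the 8 gene lists by their place under the selection rule in roots. The small heat shock proteins have 10 members and 5 further genes above the 20 µM ceiling, and no other list has more than 1 member.

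Between 6 h and 24 h in 80 µM most members kept their level within 2-fold, as did most of the 2650 loci at 20 RPKM or more in both libraries. The balance of higher and lower members depended on the scaling. Of the 61 in the deposited RPKM values, 29 were higher and 32 lower at 24 h, the median ratio was 0.95, and 50 differed by less than 2-fold on the log2(RPKM + 1) scale. The clock balance of the root libraries was 1.88 untreated, −1.4 (6 h) and 1.36 (24 h) for the 20 µM dose, and −2.14 (6 h) and −1.79 (24 h) for the 80 µM dose. By this readout the 80 µM root libraries of both times lie near each other. The one labelled 24 h lies far from the untreated and the 20 µM 24 h roots, so the comparison of times in 80 µM roots carries a doubt about harvest hour. The label is kept, and the part of the clock balance in the members' values was not tested. The median log2 difference was −0.08 in the members and −0.18 over the 2650 loci at 20 RPKM or more in both libraries. At least 2-fold higher at 24 h were 6 members, beside 4.38% of the 2650 loci, and at least 2-fold lower were 5, beside 15.5%. With median of ratios scaling of the libraries, 15 members were higher and 46 lower at 24 h, with 4 and 16 past 2-fold beside 2.22% and 28.1% of the loci. That scaling moved the median of the members to −0.54 and of all loci to −0.51, so the members lay near the typical locus. Of the 10 small heat shock members, 9 were lower at 24 h in the deposited values. Their ratios ran from 0.54 for HSP21.9 to 1.39 for HSP16.0. The share of all loci lower at 24 h was not counted, so nothing particular to these genes is read from this. HSP101 had a ratio of 0.77 and HSFA2a of 0.80, HMA5 was at 0.85 and AMY3D at 1.07. With median of ratios scaling HSP16.0 stood at 1.0 and AMY3D at 0.77. All 10 small heat shock members were then lower at 24 h on the log2(RPKM + 1) scale, where the median of all loci was −0.51.

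The members that changed most between the times have no name and were picked out after their values were seen. LOC_Os03g53400 went from 76.3 to 397.2 RPKM, a ratio of 5.21, and became one of the most abundant members at 24 h. LOC_Os01g37200 went from 25.6 to 92.1 RPKM, LOC_Os06g28790 from 26.0 to 88.1 and LOC_Os06g46129 from 71.9 to 168.0. The neighbours LOC_Os01g47290 and LOC_Os01g47300 moved alike, from 113.6 to 305.9 RPKM and from 35.7 to 107.7 RPKM, with ratios of 2.69 and 3.02. In the other direction, LOC_Os06g13910 went from 243.8 to 54.2 RPKM and LOC_Os07g48500 from 172.1 to 60.4 RPKM. LOC_Os01g01280, LOC_Os03g06970 and LOC_Os06g09560 had ratios of 0.33, 0.39 and 0.45.

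**Figure D4:**
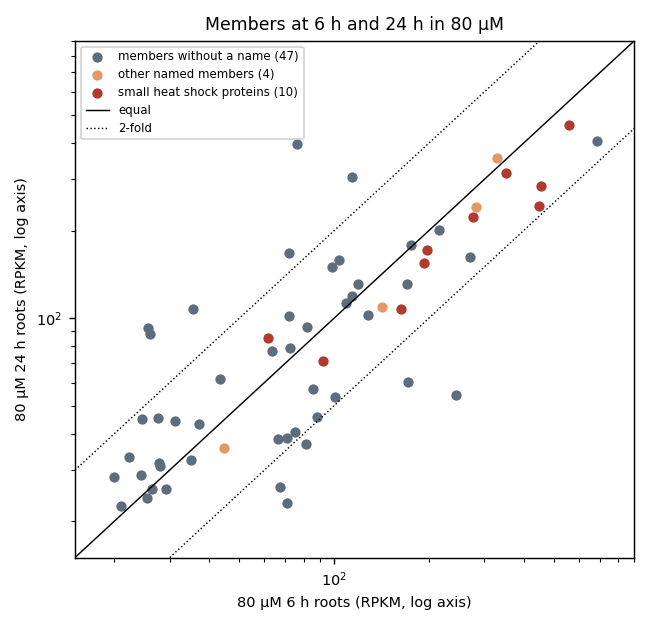
RPKM of the 61 members in 80 µM roots at 6 h (x axis) and 24 h (y axis), both log axes, with the lines of equality and of a 2-fold ratio. The 10 small heat shock proteins have ratios from 0.54 to 1.39. The 47 members without a name have ratios from 0.22 to 5.21, a range that widens with the number of genes.

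The members lie on all 12 chromosomes, with 12 on chromosome 1, 9 on chromosome 3 and 8 on chromosome 6. Of the 61, 14 (23.0%) had another member within 5 loci in the order of the locus identifiers, in 6 runs. The longest run is the group of 4 small heat shock genes on chromosome 1. The other 5 runs are pairs. HSFA2a lies near LOC_Os03g53400, with 4 loci between them that are no members and stood at 4.6 RPKM or less in both 80 µM root libraries. The members of this pair differed in time in the deposited values, since HSFA2a was lower at 24 h and LOC_Os03g53400 was 5.21 times higher. HMA5 lies beside LOC_Os04g46950, which measured 1.8 RPKM untreated, 3.1 and 1.0 RPKM in 20 µM, and 25.5 RPKM in 80 µM at 6 h, with nearly the same level at 24 h. The pair LOC_Os02g34260 and LOC_Os02g34270 was listed at 0 in all 5 shoot libraries and in untreated and 20 µM roots, and had 27.9 and 27.5 RPKM in 80 µM roots at 6 h and 30.9 and 45.3 RPKM at 24 h. Neither locus has a low value in any library, so the value of 1 read is not known for this pair and few reads are assured. The lower bound at 24 h was 1 and 2 reads, the lowest of any member, and at 6 h it was uninformative. Reads from overlapping neighbours cannot be told apart in these tables.

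Shoots were not used to choose the members, so they show whether the same loci were high in the other organ of the same seedlings. In shoots 29 of the 61 members stayed under 5 RPKM in all 5 libraries, and 4 were listed at 0 throughout. The other 32 reached 5 RPKM in a shoot library, beside 15408 of all 57624 loci, of which 27600 were above 0 in one. The members had to be expressed in roots and the other loci did not, so nothing is read from this difference. Only 2 members had a shoot value above their lower 80 µM root value. LOC_Os07g48500 was one, with 354.8 RPKM in untreated shoots, 136.4 and 160.3 RPKM in 20 µM, and 249.8 and 150.7 RPKM in 80 µM. In that gene every treated shoot library was below the untreated one, whereas its 80 µM root values were above the untreated root value of 6.2 RPKM. The other was LOC_Os01g01280, which is described with the shoots at 24 h.

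In shoots at 80 µM and 6 h, 12 members were at least 2-fold higher than in untreated shoots on the log2(RPKM + 1) scale, of 31 considered because they reached 5 RPKM in one of both libraries. That is 38.7% of those considered and 19.7% of all 61, beside 9.38% of the 13936 loci considered. A further 8 were 2-fold lower (25.8% of those considered), beside 12.6% of the loci. The median difference of the considered members was 0.71, beside 0.03 over all considered loci. A member considered only because it was high at 80 µM had to differ, so the share among the considered is no measure of all members. Counted at 4-fold, 7 members were higher beside 1.8% of the loci, and with 5 in place of 1 added to RPKM, 7 were higher beside 4.31%.

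Of the 14 named members, 5 were 2-fold higher in that library and 1 was lower. HSP24.1 measured 12.1 RPKM in untreated shoots, 2.8 and 15.4 RPKM in 20 µM, and 53.4 and 3.1 RPKM in 80 µM. HSP17.7 measured 11.8 RPKM untreated, 3.6 and 4.8 RPKM in 20 µM, and 33.3 and 4.0 RPKM in 80 µM. HSP16.9A measured 2.2 RPKM untreated, 2.0 and 0 RPKM in 20 µM, and 12.5 and 0 RPKM in 80 µM. In these 3 the library at 80 µM 6 h was the highest of the 5 and the library at 80 µM 24 h was below the untreated one. HSP16.9B was likewise highest at 80 µM 6 h, with 3.3 RPKM untreated and 10.5 and 0 RPKM in 80 µM. The last of the 5 was HSP16.0. Each of these shoot values is far below the same gene's level in roots at 80 µM 6 h.

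The small heat shock members in shoots at 80 µM 6 h had a median of 8.6 RPKM, beside 2.3 RPKM in untreated shoots and 237.0 RPKM in roots at the same dose and time. Of the 10, 7 were above their untreated shoot value and 3 below, and 6 reached 5 RPKM at 80 µM 6 h. The same was not counted over all loci, so nothing is read from these counts. HSP18.6, at 351.4 RPKM in 80 µM roots, was at 14.5 RPKM in untreated shoots and at 10.9 RPKM in shoots at 80 µM 6 h. HSP21.9, at 447.3 RPKM in those roots, was at 2.0 RPKM in the shoots of the same group and listed at 0 in the other 4 shoot libraries. HSP101 had 4.1 RPKM in untreated shoots and 8.8 RPKM at 80 µM 6 h, HSFA2a 0 and 3.9 RPKM. AMY3D was lower, with 6.2 RPKM untreated and 2.5 RPKM at 80 µM 6 h, and HMA5 lay between 1.6 and 6.3 RPKM in all shoot libraries.

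HSP16.0, the peroxisomal member, stood higher at 24 h than at 6 h in 80 µM shoots. It was listed at 0 in untreated shoots and in the library labelled 20 µM 6 h, at 4.4 RPKM in the one labelled 20 µM 24 h, and at 6.8 and 12.1 RPKM in 80 µM at 6 h and 24 h. It had the highest mean difference of the 80 µM shoots from the untreated one among all members, 3.34 on the log2(RPKM + 1) scale. LOC_Os09g03200 came next with 1.57, from 0 RPKM untreated to 7.8 RPKM at 80 µM 6 h and 0 at 24 h. LOC_Os04g45480, with 0.8 RPKM untreated, had 6.2 and 1.1 RPKM, and LOC_Os08g40910, with 1.0 RPKM untreated, had 15.2 and 0 RPKM. The remaining members in the first 10 by this mean were HSFA2a (1.15), LOC_Os01g47290 (1.13), LOC_Os01g37200 (1.00), HSP23.2 (0.92), HSP21.9 (0.79) and LOC_Os01g53650 (0.74), which all stayed under 5 RPKM in every shoot library.

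In the other 3 treated shoot libraries more members were 2-fold lower than 2-fold higher, which in the one labelled 20 µM 24 h turned at 4-fold to 3 higher and 0 lower. At 80 µM and 24 h, 2 of 18 considered members were 2-fold higher, beside 9.15% of the loci, and 9 were 2-fold lower, beside 30.1%. With median of ratios scaling these were 3, beside 19.1%, and 4, beside 18.2%. The median difference of these members was −1.01, beside −0.44 over all loci. In the library labelled 20 µM 6 h, 2 of 20 were higher, beside 6.2%, and 10 were lower, beside 9.92%. In the one labelled 20 µM 24 h, 4 of 21 were higher, beside 10.3%, and 8 were lower, beside 12.3%. Of the small heat shock members, 7 of 10 were below their untreated shoot value at 80 µM 24 h and 2 above it. Only 3 of the 10 reached 5 RPKM in untreated shoots, and the typical locus was itself lower in this library. The same was not counted over all loci, so nothing is read from this count. Set directly against each other, the 80 µM shoot libraries had 19 of 30 considered members 2-fold lower at 24 h than at 6 h, beside 35.6% of all loci, and 4 higher, beside 15.2%. LOC_Os01g01280 was one of the 2 higher members at 24 h, with 21.6 RPKM in untreated shoots, 3.8 RPKM at 80 µM 6 h and 65.4 RPKM at 24 h.

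**Figure D5:**
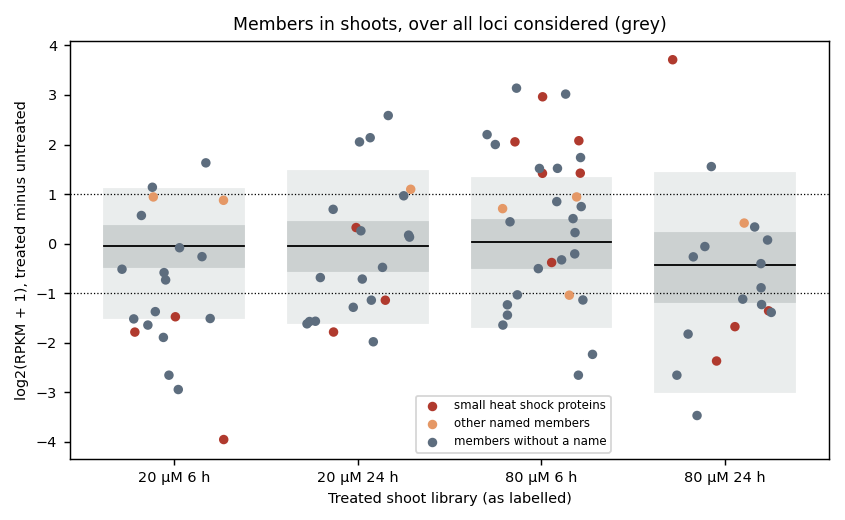
Difference of each treated shoot library from untreated shoots on the log2(RPKM + 1) scale for the members that reached 5 RPKM in either library, over grey boxes of all loci considered (dark, the middle quartiles; light, all but the lowest and highest 5% of loci; line, median). At 80 µM 6 h the members' median was 0.71 beside 0.03 for all loci, and in the other 3 libraries it was −0.48 to −1.05, below that of all loci.

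The dose was also tested over the 5 shoot libraries with limma, which treats the libraries of both times at a dose as its spread. Of 15408 loci tested, 32 members among them, limma called 0 loci higher (0%) and 0 lower (0%) in 80 µM than in 20 µM at an adjusted p of 0.05, and 225 loci and 0 members had an unadjusted p under 0.05. The smallest Benjamini-Hochberg adjusted p from limma was 1. The members had a median difference of 0.52 between 80 and 20 µM, with 22 of 32 positive, beside −0.18 over all loci. Without the library at 80 µM 6 h the members' median was −0.40, with 10 of 24 positive, beside −0.42 over all loci. Without the library at 80 µM 24 h it was 1.1, beside 0.05 over all loci. The sign, and the distance of the members from all loci, thus rest on the 6 h library. In 80 µM against untreated shoots limma again called 0 loci (0% in either direction), with 183 loci and 0 members at an unadjusted p under 0.05, and the members' median was −0.18 beside −0.27.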

How the data were processed

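The deposited mRNA tables hold RPKM values at 1 decimal for 57624 loci under MSU identifiers, 1 table per library. The aligner BWA is named among the tools, per the submitters' processing notes. The build, the annotation, the counter and their versions are not given in these sources. Per the labels' protocols, poly(A) RNA was primed with random hexamers and sequenced as paired-end reads. The miRNA tables were not used here. Relative depth was read from low values of loci listed at 0 in at least 4 libraries; absolute depth is unknown. By that step 58 members rest on at least 10 reads in both 80 µM root libraries. For LOC_Os01g37200, LOC_Os02g34260 and LOC_Os02g34270 that number is not assured. An exact 0 is given as listed at 0.

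The selection rule was applied to all loci. Counts of 2-fold differences used log2(RPKM + 1) over loci at 5 RPKM or more in at least 1 of the libraries compared, a scale that understates changes of low genes. Shoot doses were tested with limma 3.58.1 under R 4.3.3, using its trend option and a Benjamini-Hochberg adjusted threshold of 0.05 over all loci, after a test on simulated data. That simulation drew both times of a dose around the same level with random noise, unlike these data. It therefore does not show how large a change limma could call here. The harvest times of a dose stand in for its spread and are not replicates, and the single untreated library is taken to have the spread of the treated doses. The comparison of the 80 µM shoot libraries by time was added after the data were seen. Other steps used Python 3.11.15, numpy 2.4.6, pandas 2.3.3 and matplotlib 3.10.9.

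The members and the 8 gene lists were chosen with earlier results of these data known. Members are named that are on a list, are among the 10 highest by their lower 80 µM root value, are among the 10 with the highest mean difference in 80 µM shoots, lie in runs of 3 or more, or lie nearest a limit; other list genes are given by counts, with at most 3 named. Members singled out by time or by shoot level were named after their values were seen. Names come from general knowledge of published rice loci. Of 49 tried, RefSeq (ASM3414082v1) lists 48 on the same chromosome, 47 of them with a single place and 0 out of order; the other is not printed. No promoter or protein sequence was used here, so promoter motifs were not searched. Alternatives were other added constants, folds, limits, filters, scalings, time terms, library subsets and neighbour distances.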

Additional observations from a re-analysis of the deposited data

Results flagged for a closer look

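Of the members at 5 RPKM or more in untreated shoots or in each 80 µM shoot library, 3 were 2-fold higher than in untreated shoots at one time in 80 µM and 2-fold lower at the other. With no filter on low values 11 members were, 9 of them higher at 6 h and lower at 24 h. The same was not counted over all loci, so nothing particular to the members is read from these numbers. Of the loci considered at each time in 80 µM shoots, 9.38% were 2-fold higher at 6 h and 30.1% were 2-fold lower at 24 h. The differences between the times were not tested, since each time has 1 library. LOC_Os01g01280 was lower at 6 h (log2 difference −2.24) and higher at 24 h (1.55), a step of 3.79 between the times. HSP24.1 was higher at 6 h (2.05) and lower at 24 h (−1.68), a step of −3.73. HSP17.7 was higher at 6 h (1.42) and lower at 24 h (−1.36), a step of −2.78. In roots at the same dose LOC_Os01g01280 was lower at 24 h than at 6 h, with a ratio of 0.33 from 70.8 RPKM at 6 h, the opposite order to shoots.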

How the results depend on the processing

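Of 135 values recomputed for 20 results, 106 equalled the reported value or lay within 1.5 times it, and 29 did not. Most of the 106 are limma counts of 0 beside a reported 0, so the total says little about the other results. The number of members was 131 at 4 times and 40 at 16 times the untreated value plus 1, 38 at a level of 40 RPKM, and 94 with median of ratios scaling, of which 60 are among the 61. With only the 6 h or only the 24 h root libraries, chosen after seeing the data, it was 127 or 178, the latter the largest number among these settings. A count near 61 can hide other loci: with 5 in place of 1 added to the untreated value it was 56, of which 31 are among the 61, and with 0.1 added it was 41, of which 40 are. In shoots, each count is followed by the share of all loci. Adding 5 to RPKM gave 1 higher (2.61%) and 6 lower (5.14%) at 20 µM 6 h, 7 (4.31%) and 4 (7.3%) at 80 µM 6 h, and 3 (5.56%) and 3 (6.52%) at 20 µM 24 h. At 4-fold the counts were 0 higher (1.14%) and 3 lower (2.65%) at 20 µM 6 h, 7 (1.8%) and 2 (3.63%) at 80 µM 6 h, 3 (2.01%) and 0 (3.06%) at 20 µM 24 h, and 1 (2.09%) and 3 (12.1%) at 80 µM 24 h. With no filter on low values they were 24 lower (11.7%) at 20 µM 6 h, 20 higher (8.98%) at 80 µM 6 h, 7 higher (9.07%) and 15 lower (12.2%) at 20 µM 24 h, and 4 (7.28%) and 25 (29.5%) at 80 µM 24 h. With median of ratios scaling 4 of 18 members were lower (18.2%) in shoots at 80 µM 24 h, and in 80 µM roots 16 were 2-fold lower (28.1%) and 4 higher (2.22%) at 24 h. With no filter limma called 27 of 27600 loci higher and 938 lower in 80 µM than in untreated shoots. Of the 57 members then tested, 2 were among the lower, so nothing particular to the members is read from this. Loci with equal values in the libraries of a dose then enter the fit. Leaving out 1 treated shoot library, or adding harvest time as a term (as labelled, or with the 20 µM times exchanged), left limma at 0 calls in both contrasts. No paired analysis was possible because each group has 1 library and the groups share only 1 replicate number. With values at 1 decimal and absolute depth unknown, differences among values of a few RPKM in shoots may be a matter of a few reads.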
